A study of Macaca mulatta with 45 samples.

Results

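White matter of the centrum semiovale was compared with prefrontal cortex of Brodmann area 46 in rhesus macaques that had survived total body irradiation (TBI). The comparison used the 10 libraries titled for TBI animals and either region, out of 45 libraries in the series, and paired the regions within each of 5 animals. White matter of TBI animals 1 to 5 came from brains that had received a single dose of 6.75, 6.75, 7.2, 7.2 and 8.05 Gy, 6 to 9 years before necropsy, and prefrontal cortex came from the same brains. The same regions of 2 other groups were used for comparison. In the 5 fWBI animals the whole brain had been irradiated in 8 fractions of 5 Gy, 40 Gy in all, 12 months before necropsy. In the 5 control animals only the thorax had been irradiated, with 10 Gy, and the labels put the dose to the brain at 0.1 Gy, so no group was free of radiation. RNA was taken from dissected pieces of frozen coronal sections after perfusion with saline. Each library is therefore a mixture of all cells in its piece.

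White matter holds the long axons of neurons together with the oligodendrocytes that wrap them in myelin, and with astrocytes, microglia, precursor cells and vessels. Grey matter of the cortex holds the neuronal cell bodies, dendrites and most synapses, with the astrocytes that take up transmitter around them. Messenger RNA of a neuron lies mostly in its cell body and dendrites, so axons passing through white matter carry little of it. Total RNA was sequenced after removal of ribosomal RNA, and the authors deposited raw read counts per gene.

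The 10 libraries held 7760715 to 12075205 counts each, and no library stood apart in its correlation with the others of its group. Marker sums of the dissections are given as a description. These libraries were singled out as uniform in neuronal genes, so the neuronal sums are not a check of the dissection. The 14 pan-neuronal genes summed to 838 to 1421 CPM (counts scaled to 1000000 per library) in white matter, against 12493 to 13957 CPM in prefrontal cortex, and the 8 tested myelin genes summed to 38234 to 54114 CPM against 715 to 1654 CPM. The 3 tested of 9 markers of ependyma and choroid plexus summed to 1.87 to 3.78 CPM in white matter and 4.35 to 5.09 CPM in prefrontal cortex. Of these 1 was higher and 2 were lower in white matter. TTR had no identifier. Too low to test were FOXJ1 (73 counts in white matter, 33 in cortex), FOLR1 (37 and 10) and SPAG17 (20 and 70). How much of such tissue the pieces held was not tested. Haemoglobin HBA, the only tested blood marker, ranged from 0.495 to 121 CPM in white matter and 0.616 to 95.5 CPM in prefrontal cortex and was not called (adjusted p = 0.196; 0.0295 without animal 5).

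**Figure D1:**
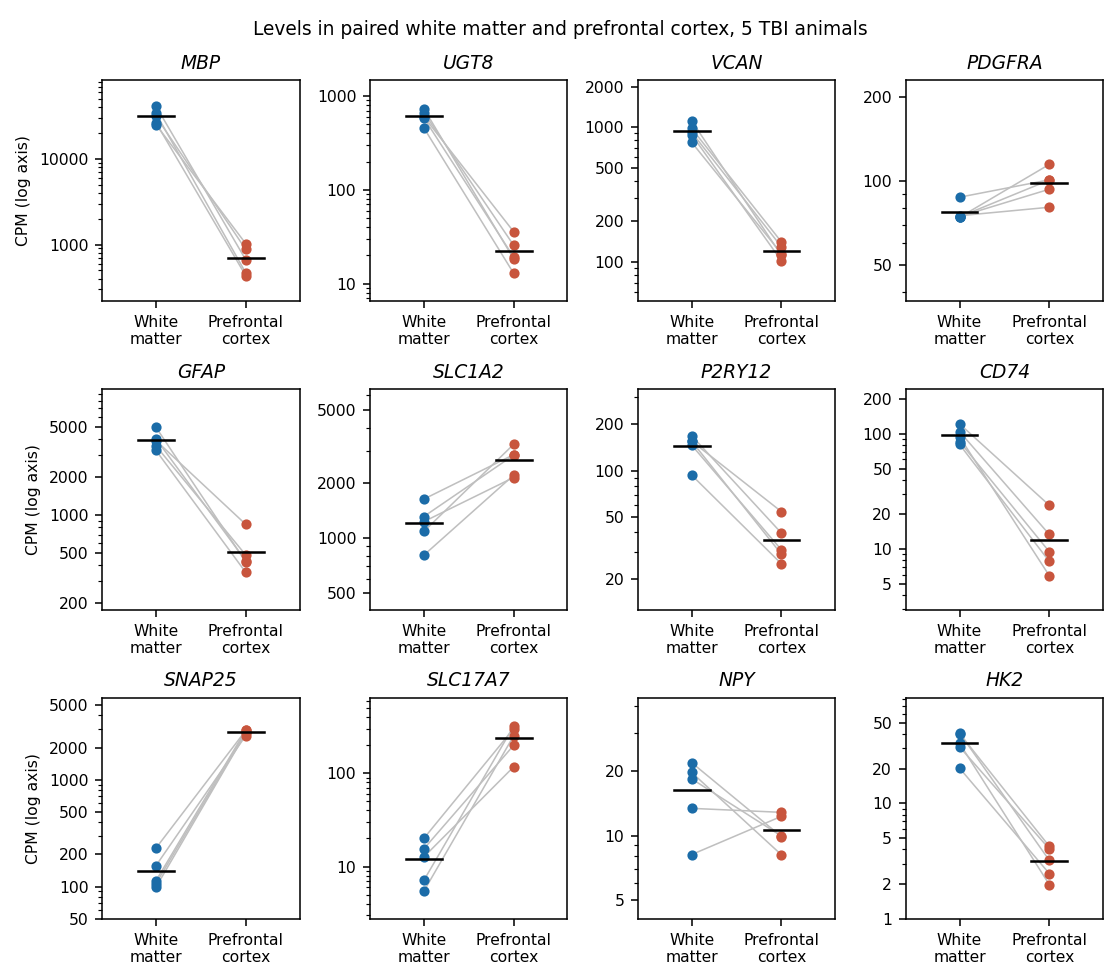
CPM on a log axis for 12 genes in paired white matter (left, blue) and prefrontal cortex (right, red) of the 5 TBI animals; grey lines join libraries of 1 animal and black bars are means. MBP, UGT8, VCAN, GFAP, P2RY12, CD74 and HK2 were higher in white matter of every animal, SLC1A2, SNAP25 and SLC17A7 lower, while PDGFRA and NPY overlapped between the regions.

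Most measured genes differed between the regions. Of 15034 genes that passed the filter on low counts, 10898 (72.5%) had an adjusted p under 0.05, with 5466 (36.4%) higher and 5432 (36.1%) lower in white matter. Adjusted p-values come throughout from the quasi-likelihood test of edgeR, in which animal was a block, after Benjamini-Hochberg adjustment over all genes tested. The median log2 fold change of all genes was 0.02. Tested against a log2 fold change of at least 1, 4293 genes (28.6%) were called, 1917 (12.8%) higher and 2376 (15.8%) lower. The counts of called members below stand against these backgrounds. With 72.5% of all genes called, a list in which most members differ lies near the background. A list divided between both directions does so too, since similar shares of all genes were higher and lower. Directions are given beside the counts, and medians for most lists. The genes VCAN, TSPAN2, TCF7L2, CIITA, GAP43, TLE4, CCN2, SST, NOS1, NPY, MAPT, PLXNB3, RTN4R and PCDH15 were chosen for mention after their values were seen. In bulk tissue, a lower value from fewer cells of a type cannot be told apart from one due to less RNA per cell.

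The genes of compact myelin had the highest median of the 41 lists examined. MBP, the gene of myelin basic protein, stood at 34039, 26613, 41499, 31413 and 25231 CPM in white matter of animals 1 to 5, against 467, 432, 664, 878 and 1024 CPM in prefrontal cortex. MOBP, which codes for a second basic protein of myelin, had 2463, 2061, 1866, 2533 and 2104 CPM in white matter, against 34.4, 28.4, 33.5, 53.3 and 63.4 CPM in prefrontal cortex. White matter varied little between animals, while the cortex of animals 4 and 5 was higher than that of animals 1 to 3. On the log2 scale (± standard error, SE, n = 5 pairs in TBI animals) white matter was higher by 5.58 ± 0.28 in MBP (adjusted p = 5.42e-08) and 5.75 ± 0.19 in MOBP (adjusted p = 1.11e-08). Each SE was derived from the F statistic of the test and was not computed from the spread of the 5 paired differences. Each of the 8 myelin genes tested was higher, 7 of them beyond a log2 fold change of 1, with a median of 5.00, and TSPAN2, a tetraspanin of oligodendrocytes, differed least (1.26 ± 0.19, adjusted p = 0.00015). Of 15 genes on that list 9 had an identifier in the name table and 8 passed the filter; MAG and CLDN11 were among those not analysed here.

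Transcription factors of oligodendrocytes differed in the same direction. MYRF, which drives myelin gene expression in mature cells, had 236, 378, 178, 324 and 280 CPM in white matter, against 13.4, 8.37, 12.4, 9.04 and 29.1 CPM in cortex (4.33 ± 0.30, adjusted p = 5.95e-07). The difference was 2.81 ± 0.13 for OLIG2, expressed along the whole lineage (adjusted p = 3.61e-08), and 4.53 ± 0.21 for ST18 (adjusted p = 3.99e-08). TCF7L2, a factor of newly forming oligodendrocytes in mice, was not called: it averaged 15.8 ± 3.05 CPM in white matter and 12.2 ± 3.82 CPM in cortex (SD, n = 5 each), and the regions overlapped (0.41 ± 0.19, adjusted p = 0.0812). It was called without animal 1 (adjusted p = 0.0458), without a filter (0.0385) and with all 15 TBI libraries (0.0477). In total 3 of 4 tested factors were higher and none was lower.

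Most enzymes that build myelin sphingolipids were higher, and those of cholesterol synthesis were divided. UGT8, which makes galactosylceramide, stood at 735, 458, 585, 666 and 603 CPM in white matter, against 18.4, 12.9, 19.3, 25.7 and 35.9 CPM in prefrontal cortex (4.82 ± 0.18, adjusted p = 1.52e-08). FA2H, which hydroxylates the fatty acids of these lipids, differed by 5.03 ± 0.15 (adjusted p = 1.05e-08), and CERS2, the ceramide synthase for very long chains, by 3.42 ± 0.13 (adjusted p = 1.35e-08). Of 11 tested sphingolipid and galactolipid enzymes 10 were higher and none was lower, with a median of 1.44. The cholesterol list split: 5 of 11 were higher, 2 lower, and the median was 0.37. HMGCS1, which acts early in the pathway, was lower by -0.48 ± 0.12 (adjusted p = 0.00542), with values that overlapped between regions. MVK, mevalonate kinase, was higher by 1.50 ± 0.13 (adjusted p = 3.12e-06).

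Oligodendrocyte precursor genes did not move as a block. These cells occur in both grey and white matter and divide throughout life. PDGFRA, the receptor that defines them, had 74.7, 74.6, 87.7, 74.3 and 75.3 CPM in white matter, against 93.7, 101, 101, 115 and 80.7 CPM in cortex. It was lower in white matter of all 5 animals, by a log2 fold change of -0.34 ± 0.10 (adjusted p = 0.0094), although the ranges of the regions overlapped. GPR17, a receptor of precursors committed to differentiate, had 18.2, 20.7, 16.9, 23.2 and 18.8 CPM in white matter, against 3.67, 3.82, 2.72, 4.11 and 3.00 CPM in cortex, with no overlap (2.50 ± 0.13, adjusted p = 7.41e-08). NEU4, a sialidase, differed most (3.08 ± 0.22, adjusted p = 7.73e-07), with 136 CPM in white matter of animal 3 against 44.7 to 75.3 CPM in that of the other 4. CSPG4, the NG2 proteoglycan, was higher by 0.90 ± 0.16 (adjusted p = 0.000451). Of 11 tested members 8 were higher, 4 of them beyond a log2 fold change of 1, and PDGFRA was the only one lower. MYT1, a zinc finger factor of the lineage, averaged 12.8 ± 2.32 CPM in white matter and 12.5 ± 0.97 CPM in cortex (SD, n = 5 each; adjusted p = 0.94).

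Adhesion genes of the node of Ranvier and its flanks were divided. At the paranode and juxtaparanode, proteins on the axon bind partners on the myelin loop. CNTN2, a contactin made by both oligodendrocytes and neurons, had 765, 1144, 548, 895 and 778 CPM in white matter, against 66.4, 59.1, 56.3, 47.7 and 109 CPM in cortex (3.63 ± 0.22, adjusted p = 1.87e-07). Its axonal partner CNTNAP2 had 8.63, 13.0, 6.65, 9.76 and 14.8 CPM in white matter, against 244, 256, 205, 120 and 267 CPM in cortex (-4.37 ± 0.18, adjusted p = 2.29e-08). CNTNAP1, the axonal protein of the paranode, differed by -3.22 ± 0.14 (adjusted p = 2.86e-08), and NFASC, which has a glial and a neuronal form that gene counts do not separate, by 1.12 ± 0.14 (adjusted p = 4.44e-05). Of 10 tested members 4 were higher and 5 lower, with a median of -0.23. Gap junction genes split in a like way. GJA1, the main astrocyte connexin, was higher by 1.03 ± 0.12 (adjusted p = 3.02e-05). GJB6, a second astrocyte connexin, was lower by -0.69 ± 0.21 (adjusted p = 0.0133; 0.0531 without animal 4) with overlapping values, and the neuronal connexin GJD2 was lower by -4.04 ± 0.41 (adjusted p = 9.04e-06), resting on 6 counts over the 5 white matter libraries and 122 over the 5 of cortex.

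**Figure D2:**
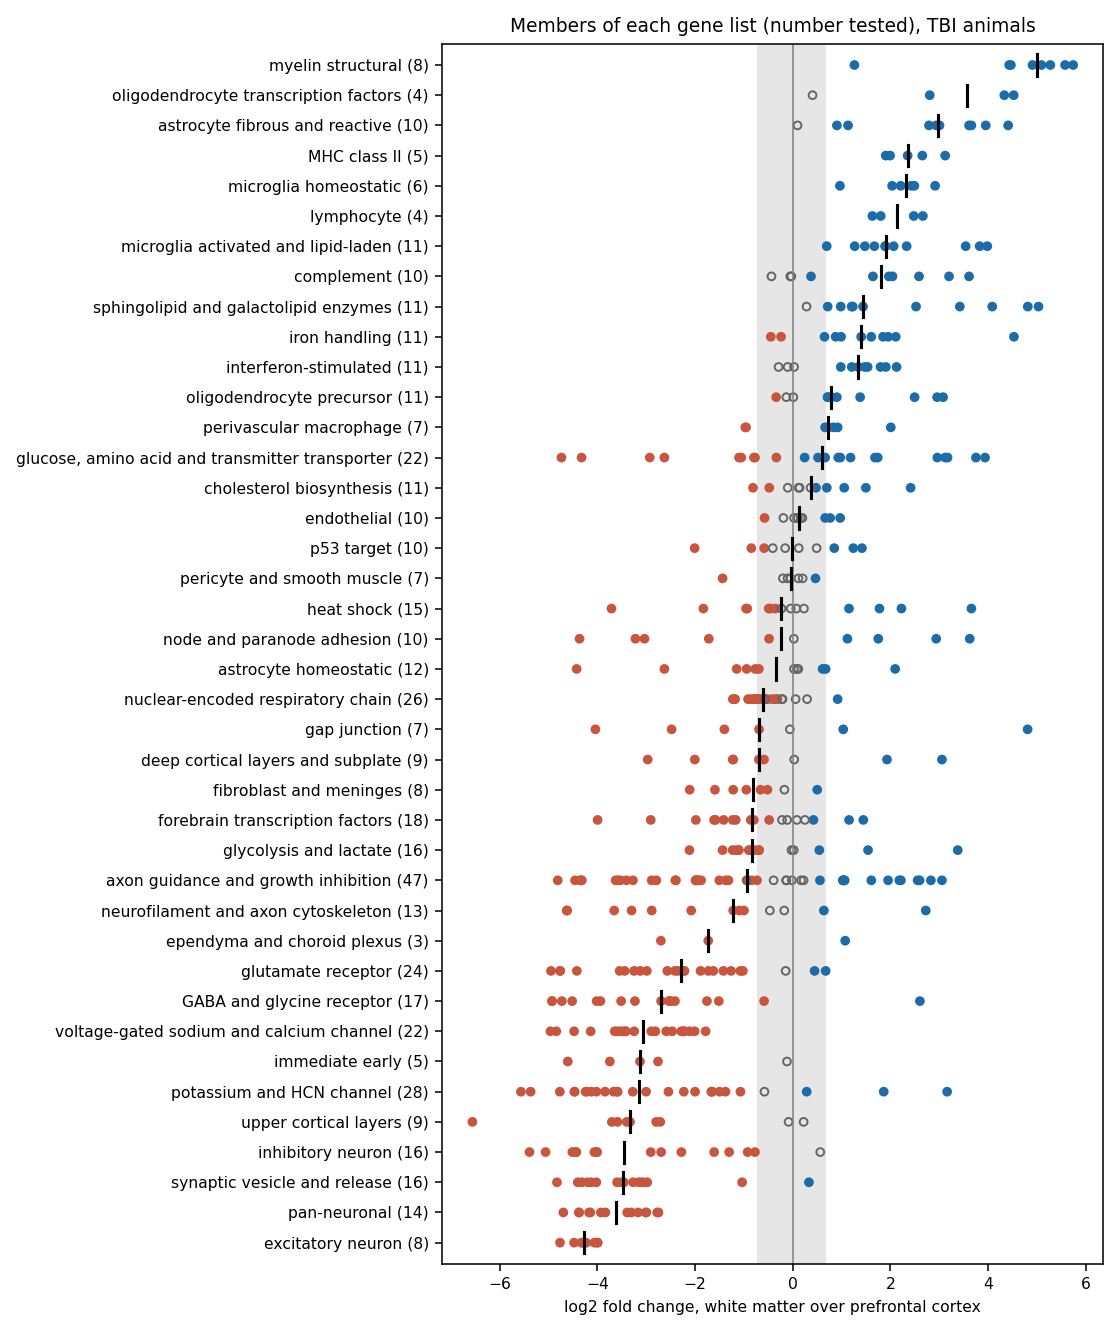
Log2 fold change of white matter over prefrontal cortex for each tested member of the gene lists with at least 3 tested members, sorted by list median (black bar); blue and red points are called higher and lower (adjusted p under 0.05), open points not called, and the grey band runs between the quartiles of all 15034 genes. Myelin genes lie highest, with a median of 5.00, and excitatory neuron genes lowest, with a median of -4.27.

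Astrocyte genes divided between those of fibrous astrocytes and those of transmitter uptake. GFAP, the intermediate filament that marks fibrous astrocytes of white matter, had 4013, 3526, 3250, 4955 and 3889 CPM in white matter, against 435, 483, 352, 426 and 844 CPM in cortex (3.01 ± 0.19, adjusted p = 2.6e-07). AQP4, the water channel of astrocyte endfeet, had 956, 761, 714, 725 and 1054 CPM against 186, 174, 182, 179 and 261 CPM (2.10 ± 0.10, adjusted p = 3.52e-08). Animal 5 had the highest cortical value of both genes. SLC1A2, the main glutamate transporter of astrocytes, ran the other way, with 1310, 1230, 1631, 806 and 1087 CPM in white matter, against 2832, 2139, 2850, 2203 and 3244 CPM in cortex (-1.15 ± 0.14, adjusted p = 3.9e-05). SLC1A3, its relative, was lower by -0.94 ± 0.10 (adjusted p = 9.21e-06), and SLC7A10, a transporter of small neutral amino acids including serine, by -4.43 ± 0.34 (adjusted p = 1.22e-06), from 8 counts over the white matter libraries and 204 over those of cortex. GLUL, glutamine synthetase, was slightly higher (0.61 ± 0.11, adjusted p = 0.000639). Of 12 tested homeostatic genes 3 were higher and 6 lower, with a median of -0.33. Of 10 tested fibrous and reactive genes 9 were higher and none was lower, with a median of 2.97, among them CD44, a hyaluronan receptor (3.95 ± 0.31, adjusted p = 1.54e-06), and SERPINA3, a secreted protease inhibitor (4.41 ± 0.48, adjusted p = 1.52e-05). The exception was VIM, the gene of vimentin, at 140 ± 31.1 CPM in white matter and 129 ± 18.6 CPM in cortex (SD, n = 5 each; adjusted p = 0.514).

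Microglial genes were higher in white matter across resting and activated sets. P2RY12, the purine receptor of surveying microglia, had 146, 93.8, 155, 155 and 168 CPM in white matter, against 30.8, 25.0, 28.8, 54.4 and 39.5 CPM in cortex (2.04 ± 0.13, adjusted p = 3.32e-07). CSF1R, the growth factor receptor that microglia need to survive, was higher by 2.21 ± 0.17 (adjusted p = 1.29e-06), and all 6 tested homeostatic genes were higher, with a median of 2.32. SPP1, osteopontin, which oligodendrocytes of primates may also express, had 2483, 2291, 3374, 2404 and 2335 CPM in white matter, against 144, 139, 168, 229 and 241 CPM in cortex (3.83 ± 0.18, adjusted p = 4e-08). All 11 tested activated and lipid-laden genes were higher, with a median of 1.90, and 8 of them beyond a log2 fold change of 1. The regions overlapped in some of these genes, among them GPNMB, a glycoprotein of lipid-laden phagocytes. GPNMB averaged 38.8 ± 14.7 CPM in white matter and 16.3 ± 7.43 CPM in cortex (SD, n = 5 each). Its log2 fold change was 1.27 ± 0.22 (adjusted p = 0.000423).

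Antigen presentation and complement followed. CD74, the invariant chain of MHC class II, had 81.0, 85.8, 94.2, 105 and 122 CPM in white matter, against 7.81, 9.48, 5.87, 13.4 and 24.0 CPM in cortex (3.12 ± 0.20, adjusted p = 3.05e-07). All 5 tested MHC class II genes were higher, including the class II transactivator CIITA (1.91 ± 0.32, adjusted p = 0.00039); reads of near-identical MHC copies may be split among genes. C3, the central complement component, had 422, 289, 461, 480 and 535 CPM in white matter, against 26.1, 26.2, 26.0, 42.3 and 68.3 CPM in cortex (3.61 ± 0.17, adjusted p = 4.35e-08). Of 10 tested complement genes 7 were higher and none was lower, and the classical pathway proteases C1R (-0.44 ± 0.23, adjusted p = 0.114) and C1S (-0.03 ± 0.18, adjusted p = 0.893) were not called. All 4 tested lymphocyte genes were also higher. CD4, which primate microglia and macrophages express as well as T cells, differed by 2.67 ± 0.17 (adjusted p = 2.91e-07), and CD8A, a coreceptor of cytotoxic T cells, by 1.80 ± 0.17 (adjusted p = 4.37e-06). CD3E did not pass the filter on low counts.

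Genes of vessel wall macrophages, vessels and meninges had smaller median differences than the microglial lists. Of 7 tested perivascular macrophage genes 5 were higher and 2 lower, with a median of 0.73. LYZ was higher by 2.01, CD163 by 0.92 and MRC1 by 0.83. LYVE1 (-0.96 ± 0.23, adjusted p = 0.0041) and F13A1 (-0.97 ± 0.13, adjusted p = 9.15e-05), genes of border macrophages, were the 2 lower ones. Endothelial PECAM1 had 35.4, 24.2, 45.2, 31.4 and 31.6 CPM in white matter, against 27.9, 29.7, 28.0, 21.3 and 39.9 CPM in cortex, and was not called (0.20 ± 0.16, adjusted p = 0.3). Of 10 tested endothelial genes 3 were higher and 1 lower, none beyond a log2 fold change of 1. Pericyte PDGFRB (-0.11 ± 0.12, adjusted p = 0.455) was not called, while ACTA2, the actin of smooth muscle, was lower by -1.44 ± 0.12 (adjusted p = 2.47e-06). Fibroblast and meningeal genes summed to 194 to 420 CPM in white matter and 266 to 520 CPM in cortex, and 6 of 8 were lower, among them the organic anion transporter SLC22A6 of the leptomeninges (-2.11 ± 0.41, adjusted p = 0.000955).

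Neuronal genes were lower in white matter but still detected there. SNAP25, which drives fusion of synaptic vesicles, had 98.8, 157, 107, 113 and 229 CPM in white matter, against 2730, 2589, 2783, 2904 and 2893 CPM in cortex. Animals 5 and 2 had the highest white matter values, and the regions lay far apart (-4.37 ± 0.19, adjusted p = 2.86e-08), so that white matter held 4.82% of the cortical level. All 14 pan-neuronal genes were lower, with a median of -3.61. For RBFOX3, the NeuN gene, the difference was -4.70 ± 0.25 (adjusted p = 7.79e-08), and for GAP43, a growth cone protein, -2.78 ± 0.14 (adjusted p = 6.17e-08). CAMK2A, the kinase of excitatory neurons, had 17.1, 21.1, 21.6, 21.9 and 29.4 CPM in white matter, against 562, 498, 493, 364 and 566 CPM in cortex (-4.48 ± 0.15, adjusted p = 1.11e-08). All 8 tested excitatory genes were lower, with a median of -4.27, and SLC17A7, the vesicular glutamate transporter of cortex, by -4.31 ± 0.34 (adjusted p = 1.37e-06).

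Genes that mark upper cortical layers had a lower median than those of deep layers. FREM3, an extracellular matrix gene of primate upper layers, had 0.237, 0.124, 0.375, 0.760 and 1.05 CPM in white matter, against 74.9, 52.3, 48.2, 33.5 and 44.9 CPM in cortex (-6.56 ± 0.31, adjusted p = 3.97e-08). Of 9 tested upper layer genes 7 were lower and none was higher, with a median of -3.33. The deep layer and subplate list had 6 of 9 lower and 2 higher, with a median of -0.69. FEZF2, a factor of corticofugal neurons, was lower by -0.69 ± 0.14 (adjusted p = 0.00117) and FOXP2 by -1.22 ± 0.19 (adjusted p = 0.000185). The 2 higher members were SEMA3E (3.06 ± 0.23, adjusted p = 1.02e-06), a secreted guidance protein, and TLE4 (1.93 ± 0.09, adjusted p = 4.11e-08), a corepressor; both are expressed in other cell types too. CCN2, a subplate gene in mice, averaged 5.39 ± 0.867 CPM in white matter and 5.36 ± 1.77 CPM in cortex (SD, n = 5 each; adjusted p = 0.9).

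All but 1 of the interneuron genes were lower, by very different amounts. GAD1, which makes GABA, had 21.3, 19.6, 11.1, 17.6 and 24.6 CPM in white matter, against 423, 409, 379, 424 and 373 CPM in cortex (-4.45 ± 0.16, adjusted p = 1.27e-08). VIP, a peptide of interneurons of upper layers, had 0.946, 1.36, 0.468, 0.887 and 1.05 CPM in white matter, against 34.8, 42.7, 40.4, 49.4 and 31.6 CPM in cortex, or 2.38% of the cortical level (-5.39 ± 0.20, adjusted p = 1.27e-08). SST, somatostatin, stood at 15.4% of the cortical level (-2.70 ± 0.20, adjusted p = 1.03e-06), and NOS1, neuronal nitric oxide synthase, at 32.8% (-1.61 ± 0.22, adjusted p = 9.19e-05). NPY, the neuropeptide Y gene, had 21.9, 19.7, 8.15, 18.4 and 13.4 CPM in white matter, against 9.88, 8.13, 12.3, 9.94 and 12.8 CPM in cortex. It was higher in white matter of 4 of 5 animals, the regions overlapped, and the test did not pass (0.56 ± 0.25, adjusted p = 0.0667). The call depended on the setting: NPY was called higher by DESeq2 (adjusted p = 0.0464), without a filter (0.0151), without the animal block (0.0328), with all 15 TBI libraries (0.0487), and without animal 3 (0.00445) or animal 5 (0.0445). NPY was the only one of 16 tested inhibitory neuron genes that was not called lower. Interstitial neurons of white matter that contain NPY, somatostatin and nitric oxide synthase are a known population in primates, and their number was not measured here.

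**Figure D3:**
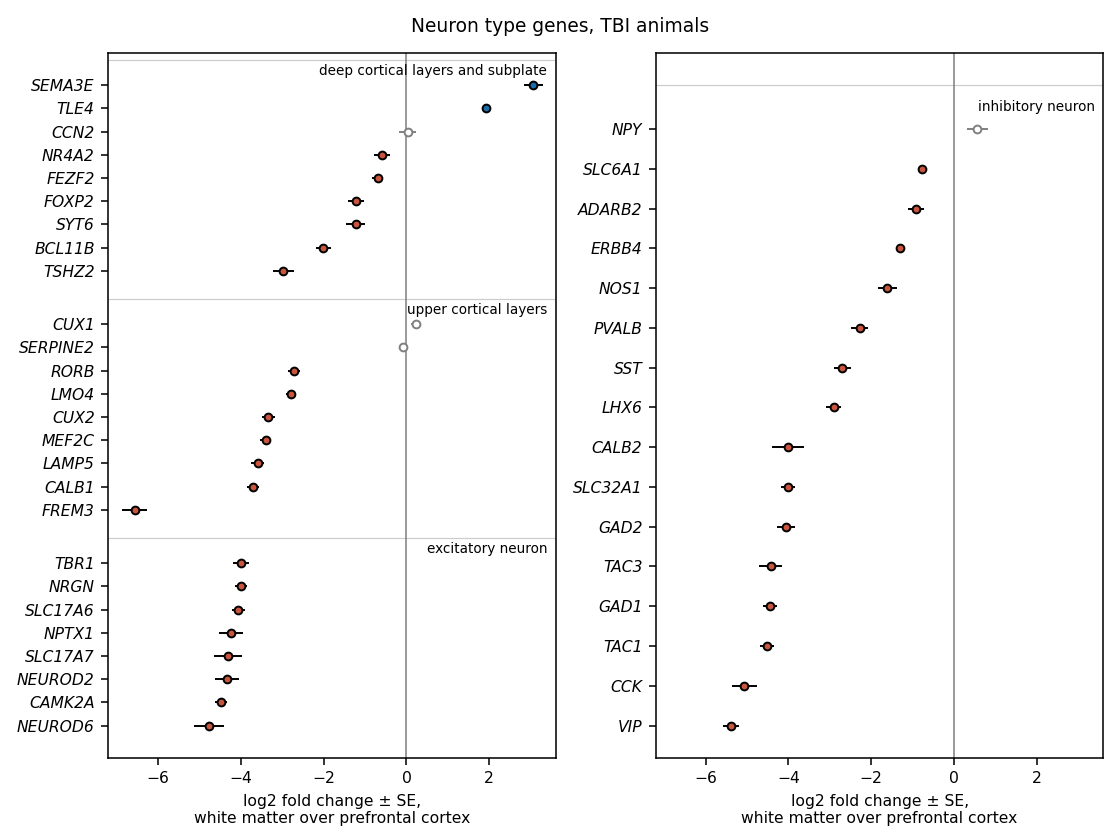
Log2 fold change of white matter over prefrontal cortex, with SE, for genes of neuron types (left, excitatory neurons and cortical layers; right, inhibitory neurons) in 5 TBI animals; filled points had an adjusted p under 0.05, red lower and blue higher in white matter, and open points were not called. FREM3 lies lowest at -6.56, and NPY, at 0.56, is the only inhibitory gene to the right of 0.

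Genes of synapses and excitability followed the neuronal lists. Of 16 tested vesicle and release genes 15 were lower, with a median of -3.48; SYP, synaptophysin, differed by -3.27 ± 0.11 (adjusted p = 1.11e-08) and SV2B by -4.83 ± 0.25 (adjusted p = 7.18e-08). RAB3A, a small GTPase of vesicles, was the exception, at 21.1 ± 1.69 CPM in white matter and 16.8 ± 2.90 CPM in cortex (SD, n = 5 each; 0.33 ± 0.13, adjusted p = 0.0355). Without animal 1, 2, 4 or 5 it was no longer called (adjusted p = 0.062, 0.134, 0.0738 and 0.0575). All 22 tested sodium and calcium channel genes were lower beyond a log2 fold change of 1, with a median of -3.07, including SCN2A, a sodium channel of axons of excitatory neurons (-4.48 ± 0.21, adjusted p = 3.65e-08). Of 24 tested glutamate receptor genes 21 were lower and 2 higher, with a median of -2.29. The AMPA receptor gene GRIA2 differed by -2.22 ± 0.11 (adjusted p = 6.66e-08), while GRM3, which astrocytes also express, was higher by 0.67 ± 0.12 (adjusted p = 0.000481). Of 17 tested GABA and glycine receptor genes 16 were lower, with a median of -2.70. The GABA receptor subunit gene GABRE had 30.6, 20.8, 6.18, 42.8 and 31.9 CPM in white matter, against 2.16, 5.29, 4.13, 3.20 and 5.24 CPM in cortex (2.61 ± 0.39, adjusted p = 0.000159). Among 28 potassium and HCN channel genes 24 were lower and 3 higher, with a median of -3.14. The voltage-gated channel gene KCNH8 was higher, with 38.9, 45.1, 33.3, 28.9 and 56.4 CPM in white matter, against 3.67, 3.08, 4.35, 3.61 and 8.05 CPM in cortex (3.16 ± 0.16, adjusted p = 6.01e-08). KCNV1, a silent potassium channel subunit, fell furthest of these (-5.57 ± 0.32, adjusted p = 1.31e-07). Of 5 tested immediate early genes, which neuronal activity induces, 4 were lower, with EGR2 at -4.61 ± 0.26 (adjusted p = 1.32e-07), and JUNB, expressed in many cell types, was not called (-0.12 ± 0.11, adjusted p = 0.357).

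The axon cytoskeleton was mixed, although the protein products fill the axons of white matter. NEFL, the light neurofilament gene, had 39.3, 43.2, 33.3, 39.9 and 82.7 CPM in white matter, against 1056, 909, 1089, 1408 and 1204 CPM in cortex (-4.63 ± 0.20, adjusted p = 2.35e-08). Animal 5, also highest in SNAP25, stood above the other 4 in white matter. NEFM (-2.89 ± 0.31, adjusted p = 1.42e-05) and NEFH (-3.30 ± 0.21, adjusted p = 2.96e-07) were lower as well. STMN4, a microtubule regulator, had 546, 677, 651, 634 and 501 CPM in white matter, against 80.6, 91.0, 96.1, 99.5 and 86.2 CPM in cortex (2.73 ± 0.09, adjusted p = 1.11e-08). Of 13 tested members 9 were lower and 2 higher, with a median of -1.22. MAPT, the tau gene, averaged 46.4 ± 12.4 CPM in white matter and 51.6 ± 8.61 CPM in cortex (SD, n = 5 each; adjusted p = 0.314) and was not called.

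Energy metabolism was lower on balance, with hexokinase genes in opposite directions. HK1, the hexokinase of neurons, had 68.4, 60.9, 59.1, 63.5 and 67.2 CPM in white matter, against 290, 257, 275, 265 and 295 CPM in cortex (-2.12 ± 0.08, adjusted p = 1.53e-08). HK2, an inducible hexokinase, had 33.1, 20.2, 40.3, 40.8 and 30.9 CPM in white matter, against 1.98, 2.46, 4.24, 3.20 and 4.03 CPM in cortex (3.38 ± 0.17, adjusted p = 6.38e-08). Neither gene overlapped between regions. Of 16 tested glycolysis and lactate genes 11 were lower and 3 higher, with a median of -0.83. Of 26 tested nuclear genes of the respiratory chain 20 were lower and 1 higher, but the differences were small: the median was -0.60 and 2 exceeded a log2 fold change of 1. ATP5F1A, a subunit of ATP synthase, was lower by -1.23 ± 0.10 (adjusted p = 1.53e-06), and NDUFA4 was not called (-0.22 ± 0.15, adjusted p = 0.214).

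Most iron genes were higher. TF, transferrin, which oligodendrocytes make in the brain, had 4248, 3446, 3066, 3480 and 2737 CPM in white matter, against 118, 106, 125, 187 and 220 CPM in cortex (4.53 ± 0.23, adjusted p = 6.97e-08). The ferritin heavy chain gene FTH1 was higher by 1.61 ± 0.12 (adjusted p = 7.39e-07), and the transferrin receptor gene TFRC was lower by -0.45 ± 0.13 (adjusted p = 0.00984). Of 11 tested members 9 were higher and 2 lower, with a median of 1.40. Transporters of sugars, amino acids and transmitters split 13 higher to 9 lower among 22 tested, with a median of 0.59. SLC5A11, an inositol transporter, was highest among them (3.94 ± 0.26, adjusted p = 3.45e-07), the fructose transporter SLC2A5 of microglia was higher by 3.12 ± 0.16 (adjusted p = 6.93e-08), and the proline transporter SLC6A7 of excitatory terminals was lowest (-4.74 ± 0.17, adjusted p = 1.23e-08).

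Heat shock genes and p53 targets showed no common direction. Among 15 tested heat shock genes 4 were higher and 7 lower, with a median of -0.23. CRYAB, the small heat shock protein that oligodendrocytes and astrocytes make, was higher by 3.66 ± 0.14 (adjusted p = 1.3e-08), and HSPA12A was lower by -3.71 ± 0.15 (adjusted p = 2.04e-08). Of 10 tested p53 targets 3 were higher and 3 lower, with a median of -0.02: CCNG1, cyclin G1, was higher by 1.42 ± 0.10 (adjusted p = 5.5e-07) and TIGAR, a regulator of glycolysis, lower by -2.01 ± 0.15 (adjusted p = 9.78e-07). BAX, which promotes cell death, was higher by 0.85 ± 0.15 (adjusted p = 0.00045). Interferon-stimulated genes were higher in 8 of 11 and lower in none, with a median of 1.34, among them IFI44L (2.13 ± 0.22, adjusted p = 1.1e-05) and IFIT3 (1.21 ± 0.10, adjusted p = 1.96e-06), while IFIT1 was not called (-0.29 ± 0.15, adjusted p = 0.11; lower by -0.43, adjusted p = 0.0169, without animal 4). Microglial markers moved with this list: all 6 tested homeostatic genes were higher, with a summed level of 639 to 837 CPM in white matter and 146 to 213 CPM in cortex, and their part in the difference was not tested.

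Guidance molecules and developmental factors also divided. Of 47 tested axon guidance and growth inhibition genes 14 were higher and 26 lower, 8 and 23 of them beyond a log2 fold change of 1. The median of the list was -0.95. SEMA3E had 133, 125, 110, 85.8 and 75.2 CPM in white matter, against 12.8, 6.40, 15.7, 16.2 and 11.9 CPM in cortex, the largest rise of the list. SEMA3B was higher by 1.61 ± 0.10 (adjusted p = 3.28e-07), SEMA3A was not called (0.22 ± 0.15, adjusted p = 0.21), and the ephrin receptor gene EPHA6 was lowest (-4.81 ± 0.21, adjusted p = 2.81e-08). PLXNB3, a semaphorin receptor of oligodendrocytes, and RTN4R, the neuronal receptor for Nogo, differed by 2.83 ± 0.11 (adjusted p = 1.8e-08) and -4.32 ± 0.24 (adjusted p = 1.17e-07). Of 18 tested forebrain transcription factors 11 were lower and 3 higher, with a median of -0.83. SOX4 was higher by 1.45 ± 0.14 (adjusted p = 5.17e-06).

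Among named genes with a mean of at least 1 CPM and the same direction in all 5 animals, the 12 largest rises included myelin genes and genes nearly silent in cortex. ADGRD2, an adhesion receptor gene, had 6.15, 8.92, 2.53, 4.94 and 9.91 CPM in white matter and no count in any cortex library. Set against a floor of 3 counts over the 5 cortex libraries, it was at least 108-fold higher. NPC1L1, a sterol transporter known from the intestine, had 33.1, 20.6, 18.9, 32.8 and 16.6 CPM in white matter, against 0.471, 0.123, 0.653, 0.657 and 0.468 CPM in cortex (5.62 ± 0.23, adjusted p = 1.98e-08). Both genes were picked as large rises with the same direction in all 5 animals, so the lack of overlap between regions adds no support. ADGRD2 passed the filter on low counts through white matter alone. The other rises included MOBP and MBP, the scaffold protein gene ANLN (5.45), LRRC63 (5.34), the chitinase-like gene CHI3L2 (5.22), the solute carrier SLC45A3 (5.16), TMEM144 (5.11) and the lymphocyte activation antigen CD69 (5.11 ± 0.44, from 168 counts in white matter and 5 in cortex).

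The 12 largest falls ran from -5.71 to -6.56 and included genes of synapse organisation. CBLN2, a secreted synaptic organiser, had 2.25, 2.60, 2.53, 4.44 and 6.01 CPM in white matter, against 161, 189, 164, 193 and 206 CPM in cortex (-5.71 ± 0.17, adjusted p = 1.05e-08). C1QL3, of the same protein superfamily, differed by -5.90 ± 0.26 (adjusted p = 2.71e-08), the kinase gene CAMK1G by -5.85 ± 0.21 (adjusted p = 1.27e-08) and MEPE, known from bone matrix, by -6.26 ± 0.24 (adjusted p = 1.54e-08). SCGN, the calcium sensor secretagogin, and DSG3, a desmosomal cadherin, each had 3 counts over the 5 white matter libraries, against 284 and 224 over those of cortex. Their white matter levels were 1.20% (95% exact binomial interval 0.247 to 3.55%) and 1.53% (0.312 to 4.52%) of those in cortex; the intervals cover counting error only. CRABP2 and SPINK5 rested on 4 and 5 counts in white matter. The others were FREM3, PNMA5 (-6.32), TESPA1 (-5.90) and the receptor tyrosine kinase ROS1 (-5.86).

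The TBI libraries were singled out as uniform in neuronal genes, so the mean log2 CPM of the 14 pan-neuronal genes is given as a description and not as a check. It was 4.83, 5.23, 4.67, 4.99 and 5.44 in white matter of TBI animals 1 to 5, with an SD of 0.308. In fWBI white matter it ranged from 4.60 to 5.61 (SD 0.418), and in control white matter it was 8.32, 4.79, 7.20, 5.26 and 5.01 (SD 1.56). Prefrontal cortex ranged from 8.50 to 8.69 in TBI, 8.54 to 8.66 in fWBI and 8.61 to 8.83 in control animals. White matter replicates 1 and 3 of the control group thus lay between the regions or near the level of cortex, and they were also the lowest of their group in the myelin list, at 8.81 and 9.35 log2 CPM against 9.72 to 9.82 in the other 3. The 5 TBI values of the myelin list in white matter lay between 9.62 and 9.76.

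**Figure D4:**
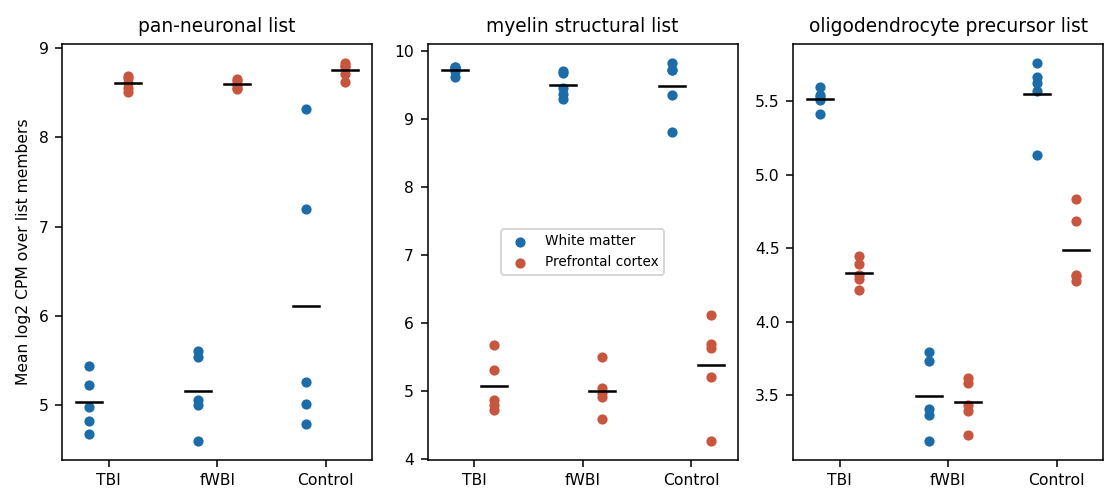
Mean log2 CPM over the tested members of 3 gene lists in white matter (blue) and prefrontal cortex (red) of TBI, fWBI and control animals; each point is a library and black bars are means of 5. Neuronal genes in white matter spanned 4.67 to 5.44 in TBI animals but 4.79 to 8.32 in control animals, and precursor genes in white matter lay at 5.41 to 5.59 in TBI animals and at 3.19 to 3.79 in fWBI animals.

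The same contrast was fitted in the 5 control pairs, which share no library with the TBI pairs. The TBI pairs called 10898 of 15034 genes (72.5%) and the control pairs 8277 of 15033 (55.1%), 27.9% higher and 27.2% lower in white matter. The median SE was 0.134 in TBI and 0.194 in control pairs. Of the genes called in TBI pairs and tested in both, 73.5% were called in control pairs, and 96.5% of control calls were called in TBI pairs, with 1 gene called in opposite directions. The pan-neuronal median was -3.61 in TBI pairs and -2.65 in control pairs, and -3.78 without control animals 1 and 3. For SNAP25 the difference was -4.37 ± 0.19 in TBI pairs, against -3.04 ± 0.82 in control pairs and -4.41 ± 0.20 without those 2 control animals. For MBP it was 5.58 ± 0.28 in TBI pairs, against 4.85 ± 0.56 in control pairs and 5.47 ± 0.52 without those animals.

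Whether the region difference itself differed between TBI and control animals was tested as an interaction. Of 15761 genes none (0.0%) was called by edgeR, and 1180 had an unadjusted p under 0.05. DESeq2 called 28 and limma-voom 0. The median SE of this interaction was 0.253, against 0.134 for the region difference in TBI pairs. In counts simulated with known changes, the edgeR test found 30% of 2-fold and 86% of 4-fold changes. The simulated counts held no region difference and no animal effect beyond those changes, unlike these data, so the rates do not carry over directly. A count of 0 therefore does not show that the region difference was the same in both groups. Without control animals 1 and 3 edgeR again called 0, with 1281 at an unadjusted p under 0.05. The 5 genes with the smallest p are given as values only, all with an adjusted p of 0.424 by edgeR. DESeq2 called 4 of them, ADAMTSL2 (adjusted p = 0.0025), SLC39A12 (0.0049), PPARGC1A (0.00942) and TOMM34 (0.00975), and not TREML1. ADAMTSL2, a secreted matrix protein gene, was higher in white matter by 0.11 to 1.52 log2 CPM in the 5 TBI animals and lower by -0.28 to -1.24 in the 5 control animals. TOMM34, a chaperone of mitochondrial import, had differences of -1.13 to -1.73 in TBI and -0.33 to -0.81 in control animals, and PPARGC1A, a coactivator of mitochondrial genes, reached -1.76 in TBI and -0.75 in control animals (interaction -0.86 ± 0.16). SLC39A12, a zinc transporter gene, had -1.46 to -2.33 in TBI and -0.20 to -1.23 in control animals. TREML1, known from platelets, had 2.10 to 2.72 in TBI and 1.26 to 1.84 in control animals. The ranges of the groups did not overlap in any of these 5, which were picked for their small p.

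Against fWBI animals the region difference was called different in a small share of genes. The fWBI pairs called 10702 of 15403 genes (69.5%), 34.1% higher and 35.4% lower in white matter, with a pan-neuronal median of -3.88. The interaction called 429 of 16073 genes (2.67%), 182 (1.13%) with a higher and 247 (1.54%) with a lower white matter to cortex ratio in TBI animals. DESeq2 called 731 (328 higher, 403 lower). By edgeR the number was 255, 271 and 269 without TBI animals 1, 2 and 3, and 256 and 282 without fWBI animals 2 and 3, and up to 550 when another animal was left out. Dose, fractionation and time since exposure all differ between these groups and cannot be told apart.

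Of the 8 genes with the smallest p, TNR and MYT1 are on the precursor list. TNR, the matrix protein tenascin-R, was higher in white matter of TBI animals by 0.57, 1.12, 0.71, 1.56 and 0.26 log2 CPM, but lower in fWBI white matter by -3.44, -4.02, -2.27, -2.27 and -3.36. The interaction was 3.92 ± 0.34 (adjusted p = 5.54e-05), and the control differences of -0.23 to 1.62 took in the TBI values. MYT1 differed by -0.41 to 0.29 in TBI animals, against -2.23 to -4.40 in fWBI animals (interaction 3.45 ± 0.32). CSPG5, a neural proteoglycan gene, differed by -0.77 to -1.55 in TBI animals, against -2.61 to -2.91 in fWBI animals (1.79 ± 0.15), and ASIC4, an acid-sensing channel gene, by -0.70 to 0.00 against -2.56 to -3.80 (3.02 ± 0.27). CA10 (2.53 ± 0.20) and the AMPA receptor gene GRIA4 (2.22 ± 0.19), lower in white matter in both groups, were less so in TBI animals. Of the 11 precursor genes 3 were called in the interaction, all higher in TBI, and the median interaction of the list was 0.31. PCDH15 was the third (3.01, adjusted p = 0.001). The mean of this list in white matter was 5.41 to 5.59 log2 CPM in TBI, against 3.19 to 3.79 in fWBI animals, while in cortex it was 4.22 to 4.45 against 3.23 to 3.62.

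CP and LYZ, also among the 8 genes with the smallest p, ran the other way. CP, ceruloplasmin, was higher in white matter of TBI animals by 1.72 to 2.96 log2 CPM, against 4.60 to 5.39 in fWBI animals (interaction -2.98 ± 0.24, adjusted p = 5.54e-05), and LYZ, lysozyme, by 1.77 to 2.45 against 4.06 to 5.03 (-2.54 ± 0.21). CP was the only one of 11 iron genes called, and the median interaction of that list was -0.01. Of 7 perivascular macrophage genes, a list that holds LYZ, 2 were called lower and 1 higher in TBI. Of 11 activated and lipid-laden microglial genes 4 were called, all lower in TBI, with GPNMB at -4.50 (adjusted p = 0.000841). None of the 8 tested myelin genes, 14 pan-neuronal genes or 8 excitatory neuron genes was called in this interaction. With 2.67% of all genes called, no call in lists this short lies near the background. Their median interactions were 0.27, -0.13 and 0.01.

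**Figure D5:**
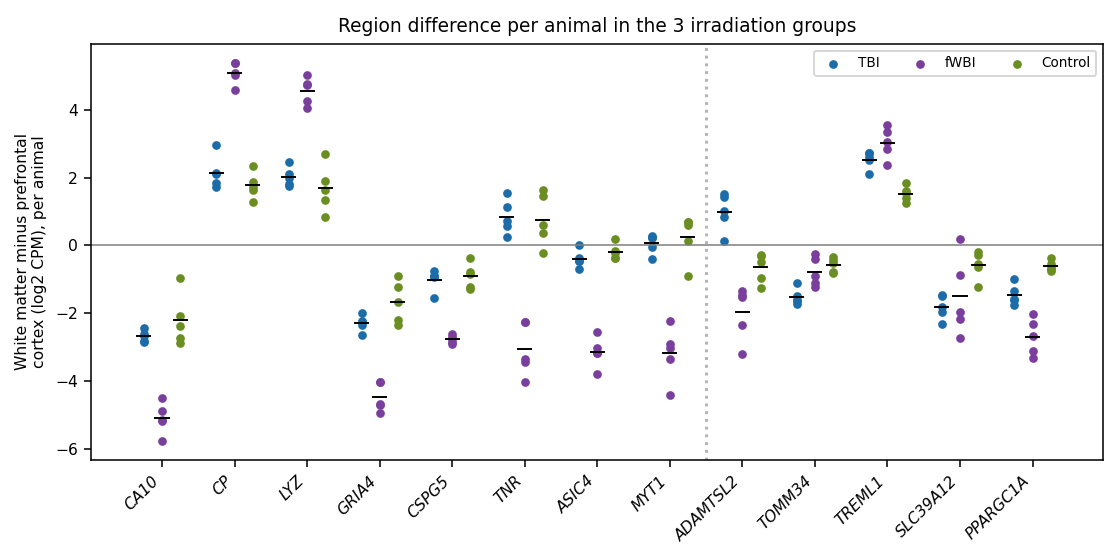
White matter minus prefrontal cortex in log2 CPM, 1 point per animal and bars at the means, in TBI, fWBI and control animals, for the 8 genes with the smallest p in the interaction with fWBI (left of the dotted line) and the 5 with the smallest p in the interaction with control animals, none called by edgeR and all but TREML1 called by DESeq2 (right). TNR lay at 0.26 to 1.56 in TBI animals and at -2.27 to -4.02 in fWBI animals.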

How the data were processed

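Brain RNA of 15 macaques was sequenced as 45 libraries, and the 10 white matter and prefrontal cortex libraries of TBI animals are the subject here. The authors deposited raw read counts per gene for 30246 Ensembl identifiers, of which 15769 matched a symbol in a RefSeq name table. Per the submitters' processing notes FastQC, STAR, featureCounts and DESeq2 were used; for the versions, settings, genome build and annotation, nothing is given in the sources used here. Per the labels' protocols the kit was stranded; whether counting used strand is not stated, so reads of overlapping antisense genes may be mixed. No column was left unmatched (0 of the count columns).

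From these counts edgeR 4.0.16 (R 4.3.3) was run with TMM scaling, filterByExpr and its quasi-likelihood test, with animal as a block and Benjamini-Hochberg adjustment at 0.05, two-sided. Differences between groups were tested as an interaction of region and group over 20 libraries of 10 animals. CPM use TMM-scaled totals, and log2 CPM a prior count of 2. The SE of a log2 fold change is its absolute value divided by the square root of the quasi-likelihood F statistic. The animal named in the labels pairs the regions: deviations of the same animal correlated at 0.197 to 0.327, and each animal correlated best with itself in 5 of 5 cases. Libraries are dissections of different animals, and no pair of replicates agreed within sampling noise. Alternatives were DESeq2 1.42.0 (test and size factors), limma 3.58.1 (voom), other filters on low counts, no block, wider sets of libraries and leaving out each animal. Fits of the control and fWBI pairs alone, also without control animals 1 and 3, were added after the data were seen. The code was tested on simulated data.

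Genes named are the 12 largest rises and falls, the first 3 tested members and the extremes of each list, and the genes with the smallest p in each interaction. The members and lists were chosen with earlier results of these data known. Of 664 genes in 41 lists, 504 were tested. A few genes chosen in this way are left unreported here.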

Additional observations from a re-analysis of the deposited data

Results flagged for a closer look

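The values of the named genes were screened for an animal standing apart from the other 4 of its region by Dixon's criterion, in 257 gene and region combinations, of which 30 passed. Chance alone passes about 1 in 20 groups. In prefrontal cortex animal 5 was high in AQP4 (261 CPM), GFAP (844), CD44 (16.8), SERPINA3 (61.1), CD4 (13.2), CIITA (2.72), MYRF (29.1), KCNH8 (8.05) and NEFM (238). In the same region animal 1 was high in FTH1 (121) and MVK (8.47), animal 3 in CD69 (0.326) and SPINK5 (14.5), and animal 4 in GAP43 (434) and HBA (95.5), while animal 2 was low in FA2H (1.97) and RTN4R (25.6). In white matter animal 4 was high in HBA (121), IFI44L (25.3) and IFIT1 (77.8), animal 2 in NEFM (42.6), NFASC (447) and TCF7L2 (21.2), and animal 3 in ANLN (2646), SPP1 (3374), PDGFRA (87.7) and NDUFA4 (480 CPM). Animal 5 was high in NEFL (82.7) and low in LRRC63 (15.6), and animal 3 was low in SOX4 (12.0).

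The white matter to cortex difference differed between TBI and fWBI animals, by the interaction test, in 10 named genes. On the log2 scale, TBI minus fWBI, it was 3.92 in TNR, 3.45 in MYT1, 3.02 in ASIC4, 3.01 in PCDH15, 2.53 in CA10, 2.22 in GRIA4 and 1.79 in CSPG5, and it was -4.50 in GPNMB, -2.98 in CP and -2.54 in LYZ.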

How the results depend on the processing

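The count of genes differing between white matter and cortex in TBI animals (10898) lay between 10401 and 12071 under other scaling, filters, tests and library sets, and between 10076 and 10734 when 1 animal was left out. Testing against a log2 fold of at least 1 gave 4293. Without the replicate block of animals, that count was 10529, the interaction with fWBI gave 391 against 429, and the interaction with control animals gave 1 against 0. DESeq2 called 28 genes in the interaction with control animals and 731 in that with fWBI animals; the cause was not tested. Leaving out 1 animal gave 0 to 0 in the interaction with control and 255 to 550 in that with fWBI animals. Control pairs gave 8277 genes, and 9706 without animals 1 and 3.

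Of 1806 alternative values of 129 genes named in the TBI comparison, 1755 kept direction and side of the threshold. The 12 that changed sign were of genes not called. Leaving out 1 animal gave -0.17 to 0.14 in C1S, -0.08 to 0.18 in CCN2, -0.04 to 0.13 in MYT1, -0.19 to 0.02 in PDGFRB and -0.00057 to 0.23 in VIM, and C1S was 0.06 without the block and 0.01 with 30 libraries. In 28 values, of 21 genes, a call was lost, mostly in the test against a log2 fold change of at least 1. SLC1A2, SLC1A3, GJA1, NFASC, GPNMB, CSPG4 and TSPAN2 were among the genes not called in that test. PDGFRA was also not called with 30 libraries (adjusted p = 0.0643). In 11 values, of NPY, TCF7L2, IFIT1 and HBA, a gene gained its call. DESeq2 called 4 of the 5 genes named against control animals. All 160 alternative values of the 10 genes named against fWBI kept direction and call. Most of those genes were picked for a small p in these same libraries, so this is not a check of the interaction. Genes at a few counts are limited by depth, as in SCGN and DSG3.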
